A study of Mus musculus with 18 samples.

Results

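The 9 libraries labelled WT, of the 18 liver libraries in the study, fell into 2 classes by their level of Ftcd, the gene that the study deleted. Ftcd was below 5 TPM in 3 of them (DEN WT 1, DEN WT 2 and untreated WT 3, here the low-Ftcd libraries) and at or above 5 TPM in the other 6 (DEN WT 3 to 6 and untreated WT 1 and 2, the high-Ftcd libraries). TPM, short for transcripts per 1000000, is a share of the library's transcripts corrected for gene length. Because a measured value chose the classes, they are not groups of the study. The p-values below describe how these 3 libraries differ from these 6, in genes read from the same libraries as Ftcd.

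All libraries were bulk RNA of mouse liver. Mice labelled WT were littermates of mice in which Ftcd was deleted in the liver (LKO), and the promoter that drove the deletion and the mouse strain are named in no source used here. The 6 DEN WT libraries were nontumour liver of mice that had received diethylnitrosamine (DEN), a carcinogen activated by hepatocytes, by intraperitoneal injection of 20 mg/kg on postnatal day 14, with tissue taken 12 months after it. The 3 untreated WT libraries were liver of mice aged 12 months. The 9 libraries labelled LKO, untreated (3), DEN nontumour (3) and DEN tumour (3), are given beside the results as values and did not enter the test across genes. No label says that replicates of a group were separate animals, so the p-values may measure only technical spread.

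Histidine is broken down in hepatocytes by the lyase Hal, the hydratase Uroc1 and the hydrolase Amdhd1, which yield formiminoglutamate. Ftcd then moves the formimino group to tetrahydrofolate and releases ammonia from it, which gives methenyltetrahydrofolate and glutamate. The reaction thus links amino acid breakdown to the folate pool that serves purine, thymidylate and methionine synthesis.

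Ftcd (ENSMUSG00000001155, mm10 chr10:76575648-76590338, plus strand) had 2.36 TPM in DEN WT 1, 2.5 in DEN WT 2 and 1.77 in untreated WT 3. In the high-Ftcd libraries it had 61.7, 66.3, 106.1 and 77.2 TPM in DEN WT 3 to 6, and 74.9 and 61.2 TPM in untreated WT 1 and 2. The means were 2.21 ± 0.387 TPM (SD, n = 3) and 74.5 ± 16.8 TPM (SD, n = 6), and the levels just below and just above the threshold were 2.5 and 61.2 TPM. The 3 low libraries lay inside the range of the 9 libraries labelled LKO, 0.10 to 3.16 TPM, so the targeted gene goes against the label of these 3. These values chose the classes and were not tested.

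**Figure D1:**
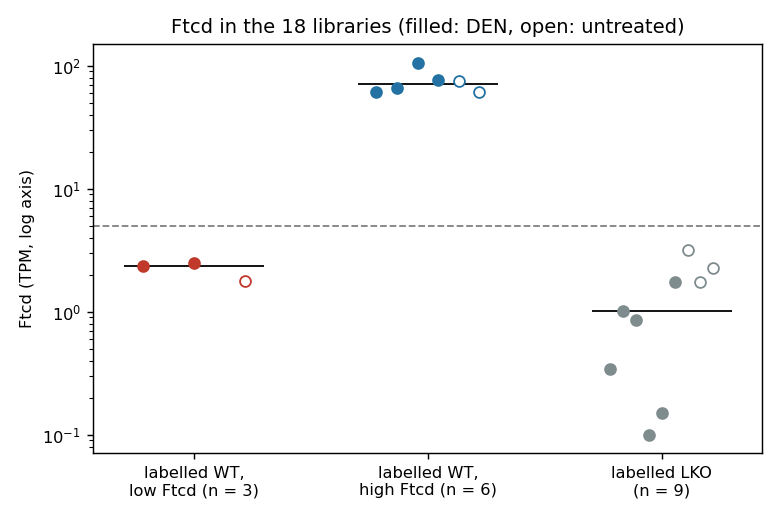
Ftcd level in each library (TPM, log axis), by class, with filled points for DEN and open points for untreated liver; black bars are medians and the dashed line is the threshold of 5 TPM. The 3 low-Ftcd libraries labelled WT lie at 1.77 to 2.5 TPM, among the LKO libraries and below the 6 others at 61.2 to 106.1 TPM.

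The lowest high library had 24.5 times the Ftcd of the highest low one, a distance that the choice of the classes by Ftcd itself fixes. Other genes are given on the same measure for scale. Of the 6730 genes whose mean over the high libraries was at least 5 TPM, Ftcd included, 2136 were lower in all 3 low libraries than in any high one, and for 55 the ratio was 2 or more. A further 3, immunoglobulin kappa V genes, were listed at 0 in all 3 low libraries and have no ratio. Behind them and Ftcd came the antisense transcript 1700054M17Rik with 17.7, the light-chain genes Igkv19-93 with 6.89 and Igkv16-104 with 4.18, and Osgep, which encodes the catalytic subunit of the tRNA threonylcarbamoyladenosine complex, with 3.26. Gdf2, the liver ligand BMP9, followed with 3.08. Unlike Ftcd, 1700054M17Rik had a median of 5.34 TPM in the LKO libraries, against 0.17, 0.00 and 0.18 TPM in the low libraries and 3.19 to 10.9 TPM in the high ones. These ratios describe the libraries and were not tested.

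The low-Ftcd libraries also differed from the others in what kinds of RNA they held. Nuclear protein-coding genes took 34.6%, 61.9% and 56.0% of TPM in DEN WT 1, DEN WT 2 and untreated WT 3, against 76.3 to 88.8% in the high libraries and 35.3 to 78.5% in LKO. Genes of the mitochondrial genome took 38.8%, 6.47% and 23.2%, against 4.24 to 10.0%, so DEN WT 2 lay inside the high range. Unprocessed pseudogenes, among which Gm28661 alone reached 91667 TPM in DEN WT 1, took 20.2%, 4.13% and 13.6%, against 2.73 to 6.71%. In the low libraries this share followed the mitochondrial one, and the rescaling without mitochondrial genes below still holds these pseudogenes. Annotated rRNA genes took 0.980%, 10.8% and 1.74%, against 0.144 to 1.49%. DEN WT 2 thus stood apart through rRNA and the other low libraries through mitochondrial transcripts. Xist was at 3.59 to 48.8 TPM in the 9 libraries labelled WT, and the sum of Y-linked genes did not exceed 0.13 TPM in either class. Depth is unknown, since TPM keeps none. The libraries listed 18286 to 20029 genes above 0, and Pearson correlations between them were 0.719 to 0.955.

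**Figure D2:**
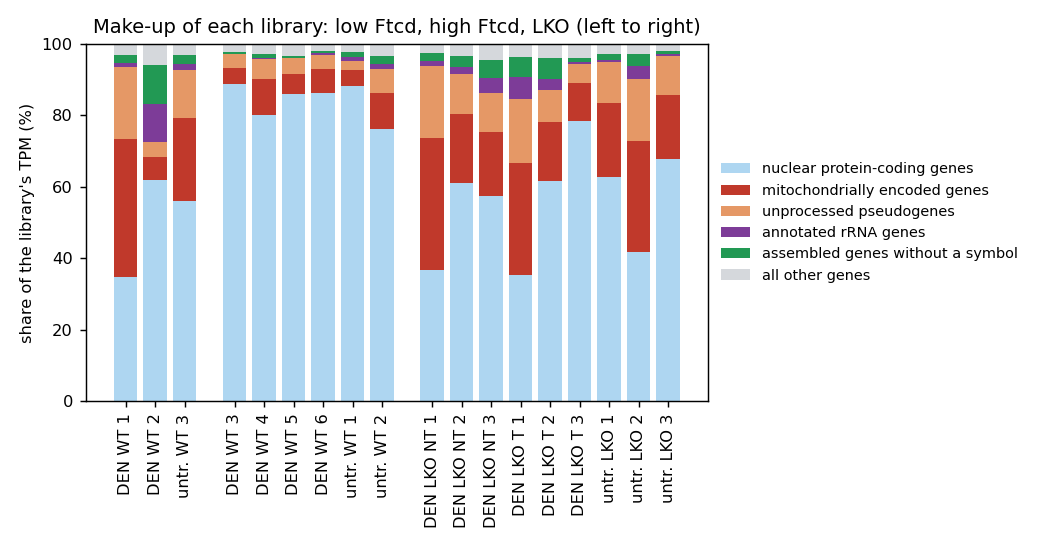
Share of TPM (%) by kind of gene in each library, as bars stacked to 100%; NT is nontumour and T tumour. The 3 low-Ftcd libraries at the left hold 34.6 to 61.9% nuclear protein-coding RNA and the 6 high-Ftcd libraries 76.3 to 88.8%.

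Across the transcriptome most genes were lower in the low-Ftcd libraries on the deposited scale. With DEN treatment as a term, limma passed 842 of 11988 genes at a Benjamini-Hochberg adjusted p under 0.05 (7.02%), of which 38 were higher (0.317%) and 804 lower (6.71%) in the low libraries. Ftcd itself was left out of these counts. The 3 low libraries lay wholly above the 6 high ones in 78 genes (0.651%) and wholly below in 2848 (23.8%), and 5068 genes (42.3%) had an unadjusted p under 0.05. The median log2 difference of all genes, low minus high on log2(TPM + 1), was -0.63. With median-ratio scaling the median was 0.02 and 7 genes passed, 6 of them higher (85.7% of calls, against 4.51% on the deposited scale). All of these 6 but Mapk15 met the filter of 1 TPM in 3 libraries only through the low libraries, a limit described below. Quantile normalization gave -0.11 and 10 genes. Of these 60% were higher, and all the higher ones met that filter only through the low libraries too. Rescaling without mitochondrial genes gave -0.44 and 182 genes, 10.4% of them higher. Rescaling over the 10288 nuclear protein-coding genes gave -0.13 and 0 genes, with 2073 at an unadjusted p under 0.05. With the mitochondrial share as a covariate 1 gene passed, Rmrp, which also met the filter only through the low libraries, and 831 had an unadjusted p under 0.05.

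The count at the adjusted threshold also changed when single libraries were left out. It was 2 to 9 without any 1 of DEN WT 1, 3, 4, 5 or 6 or untreated WT 1 or 3, 769 without DEN WT 2 and 4815 without untreated WT 2. Genes with an unadjusted p under 0.05 changed less, from 5068 with all 9 libraries to 2249 without DEN WT 1 and 5313 without DEN WT 4. Adjusted values could lie just over the threshold, such as 0.0501 for the P450 gene Cyp2e1 in limma without DEN WT 4. Within the 6 DEN WT libraries, 2 against 4, 15 genes passed and 5083 had an unadjusted p under 0.05. The untreated libraries alone, 1 against 2, were not fitted. A passing gene below is therefore a gene that passed on the deposited scale with all 9 libraries. The relative median of a list is its median minus that of all genes. Its counts are to be read against those of all genes. Of these 6.71% passed as lower, 23.8% lay wholly below and 42.3% had an unadjusted p under 0.05. Calls also varied with level. Of genes with a mean under 5 TPM 65 of 5674 passed as lower, and at 5 to 50 TPM 418 of 4860. At 50 to 500 TPM it was 269 of 1193, and over 500 TPM 52 of 261. Their medians were -0.47, -0.82, -0.96 and -0.86. The lists were not matched for level, and its part in their values was not tested. Of the 38 genes that passed as higher, 25 reached 1 TPM in fewer than 3 high libraries, so they met the filter only through the low libraries in which they were high. Such genes had to differ, and those named below are described with no test. Of the 804 lower genes, 24 were under 1 TPM in all 3 low libraries.

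**Figure D3:**
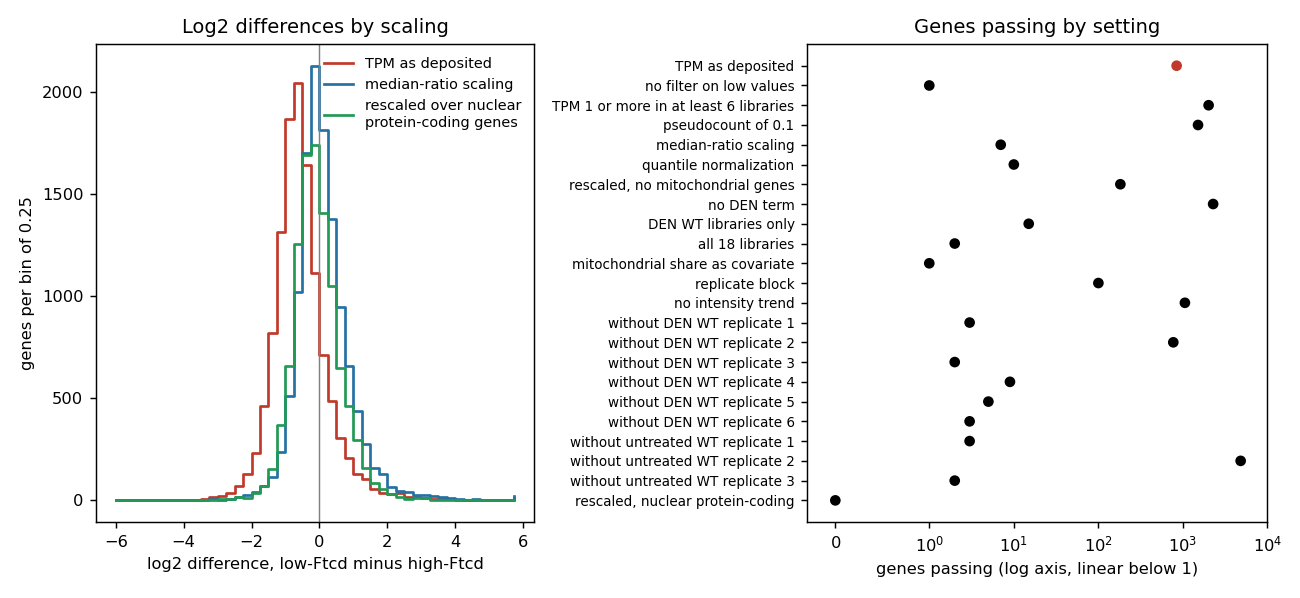
Left, number of genes per bin of 0.25 of the log2 difference (low minus high) under 3 scalings, with values beyond ±6 in the end bins; right, number of genes passing limma under each setting (log axis, linear below 1), with the deposited scale in red. The distribution lies left of 0 for TPM as deposited (median -0.63) and near 0 with median-ratio scaling (0.02), and the counts run from 0 to 4815.

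The genes that were higher in the low libraries included several noncoding RNAs. Rmrp, the RNA of the RNase MRP ribonucleoprotein that cleaves precursor rRNA, has 2 overlapping entries in the annotation. The longer one (ENSMUSG00000115420, mm10 chr4:43492783-43493063, minus strand) has 281 bases and the shorter one (ENSMUSG00000088088, chr4:43492788-43493058) 271. The longer sequence, from GENCODE M21 on mm10, is shown because the 2 entries can be told apart only by its end bases, 5 at each end, in capitals.
Rmrp: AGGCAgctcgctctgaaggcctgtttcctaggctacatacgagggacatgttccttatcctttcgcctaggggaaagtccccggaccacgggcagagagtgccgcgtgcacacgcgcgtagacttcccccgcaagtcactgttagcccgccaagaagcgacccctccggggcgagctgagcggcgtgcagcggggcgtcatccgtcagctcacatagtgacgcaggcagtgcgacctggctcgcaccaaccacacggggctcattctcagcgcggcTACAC
The longer entry had 18.5, 36.7 and 11.6 TPM in DEN WT 1, DEN WT 2 and untreated WT 3 and was listed at 0 in all 6 high libraries. It met the filter only through the low libraries. It entered the wider set of 26920 genes above 0 in any of the 9 libraries through the low ones only as well. There its difference was 4.39 ± 0.32 (SE) on log2(TPM + 1). The size depends on the pseudocount, since the high libraries are at 0. The shorter entry, which shares 96.4% of the longer one's bases, had 3.54, 58.7 and 4.91 TPM against 2.01 to 11.2 TPM, overlapped between the classes and did not pass (1.17 ± 0.79, adjusted p = 0.252). Reads of the shared bases can be split either way, so the sum is the safer value. It was 22.1, 95.3 and 16.5 TPM in the low libraries, 2.01 to 11.2 TPM in the high ones and 1.44 to 36.6 TPM in LKO. The 3 low libraries were above all 6 high ones in the sum too.

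Other RNAs of ribosome production, RNA polymerase II control and mitochondria passed in the same direction. Rnu3b2 (mm10 chr11:87471368-87471583), a U3 small nucleolar RNA of precursor rRNA processing, had 590.1, 292.8 and 97.5 TPM against 0.00 to 24.1 TPM, with a median of 9.33 (5.76 ± 1.28, adjusted p = 0.0435). Rn7sk, the 7SK RNA that holds the elongation factor P-TEFb inactive, had 145.5, 567.8 and 172.8 TPM against 13.0 to 141.2 TPM (2.75 ± 0.66, adjusted p = 0.0447). The mitochondrial 16S rRNA gene mt-Rnr2 had 2009, 1230 and 1633 TPM against 125.1 to 1037 TPM (2.48 ± 0.62, adjusted p = 0.0469). The 12S gene mt-Rnr1 had 3107, 2245 and 3040 TPM against 262.7 to 1751 TPM (2.22 ± 0.59, adjusted p = 0.0492). Each of these 4 passed in 1 of the 9 fits that leave out a library. The rule that named them asks for classes that do not overlap. The microRNA gene Mir8097, described with no test, had 33.9, 52.4 and 58.3 TPM, 29.1 in untreated WT 2 and 0 in the other 5 high libraries.

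By annotated type, 2 of 2 mitochondrial rRNA genes, 3 of 33 small nucleolar RNAs, 3 of 32 small nuclear RNAs, 2 of 20 microRNAs, 2 of 38 rRNA genes and 10 of 538 assembled genes without a symbol passed as higher, where 0.317% of all genes did. Their median log2 differences were 2.35, 1.75, 1.13, 1.57, 4.73 and 0.31, against -0.68 for the 10288 nuclear protein-coding genes, of which 11 passed as higher and 769 as lower. Many of these calls are among the 25 genes that had to differ. They include the rRNA genes n-R5s111 and Rn5s, the small nucleolar RNAs Gm23442 and Gm25835, and Mir8097. Most of the assembled and of the protein-coding genes that passed as higher are also among the 25. Genes of 500 bases or less had a median of 0.18. Several protein-coding genes were, like the rRNA share, highest in DEN WT 2, and are named after their values were seen. Cmss1 had 3513, 23669 and 5453 TPM, against 713.6 to 5626 TPM, and did not pass (2.32 ± 0.68, adjusted p = 0.0556). Gphn, Lars2, Tmtc2 and Cdk8 were likewise highest in DEN WT 2, at 24095, 1595, 1829 and 629.4 TPM, as was the rRNA gene CT010467.1 at 26184 TPM. Of the 4, Tmtc2 and Cdk8 passed (adjusted p = 0.0469 and 0.0492). The part of rRNA in these values was not tested.

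Of the protein-coding genes that were higher, 4 are described with no test, since each met the filter only through the low libraries. Flacc1, which encodes a coiled-coil protein of the flagellum, had 6.64, 2.19 and 7.09 TPM against 0.03 to 0.41 TPM (a difference of 2.34, and 2.89 with median-ratio scaling). Fbxl7, a substrate adaptor of a ubiquitin ligase, had 8.05, 8.95 and 2.90 TPM against 0.18 to 2.51 TPM (2.14). Nlrp1b, an inflammasome sensor named after its values were seen, was nearly level in the low libraries at 5.18, 4.61 and 4.88 TPM, against 0.08 to 1.32 TPM (2.05). Gm2000, a predicted protein-coding gene also named afterwards, had 343.5, 3.0 and 146.5 TPM, 1.44 in DEN WT 4 and 0 in the other 5 high libraries. In LKO the medians were 4.59 TPM for Flacc1, 3.42 for Fbxl7, 7.48 for Nlrp1b and 207.4 for Gm2000.

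The carboxylesterase gene Ces2c (ENSMUSG00000061825, mm10 chr8:104847068-104854483, plus strand) was the gene that passed as lower under the most alternatives of those chosen by the size of the fall, 14 of 21. It had 1.45, 2.54 and 0.86 TPM in the low libraries and 7.62 to 30.5 TPM in the high ones, with a median of 25.9 (-3.13 ± 0.39, limma adjusted p = 0.0291). With median-ratio scaling it was the 1 gene that passed as lower (-2.45 ± 0.30, adjusted p = 0.0473). It no longer passed without DEN WT 1, 3 or 6 or untreated WT 3 (adjusted p = 0.143, 0.0812, 0.0751 and 0.0779), nor with the mitochondrial share as a covariate (-2.68, adjusted p = 0.422) or over nuclear protein-coding genes (-2.68, adjusted p = 0.0805). The LKO libraries had 3.34 to 37.1 TPM, all above the low-Ftcd libraries. Osgep, named after its values were seen, had 4.76, 4.91 and 3.64 TPM against 16.0 to 26.1 TPM (-2.05 ± 0.26, adjusted p = 0.0291, and 0.115 with median-ratio scaling). It had 1.40 to 8.53 TPM in LKO.

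**Figure D4:**
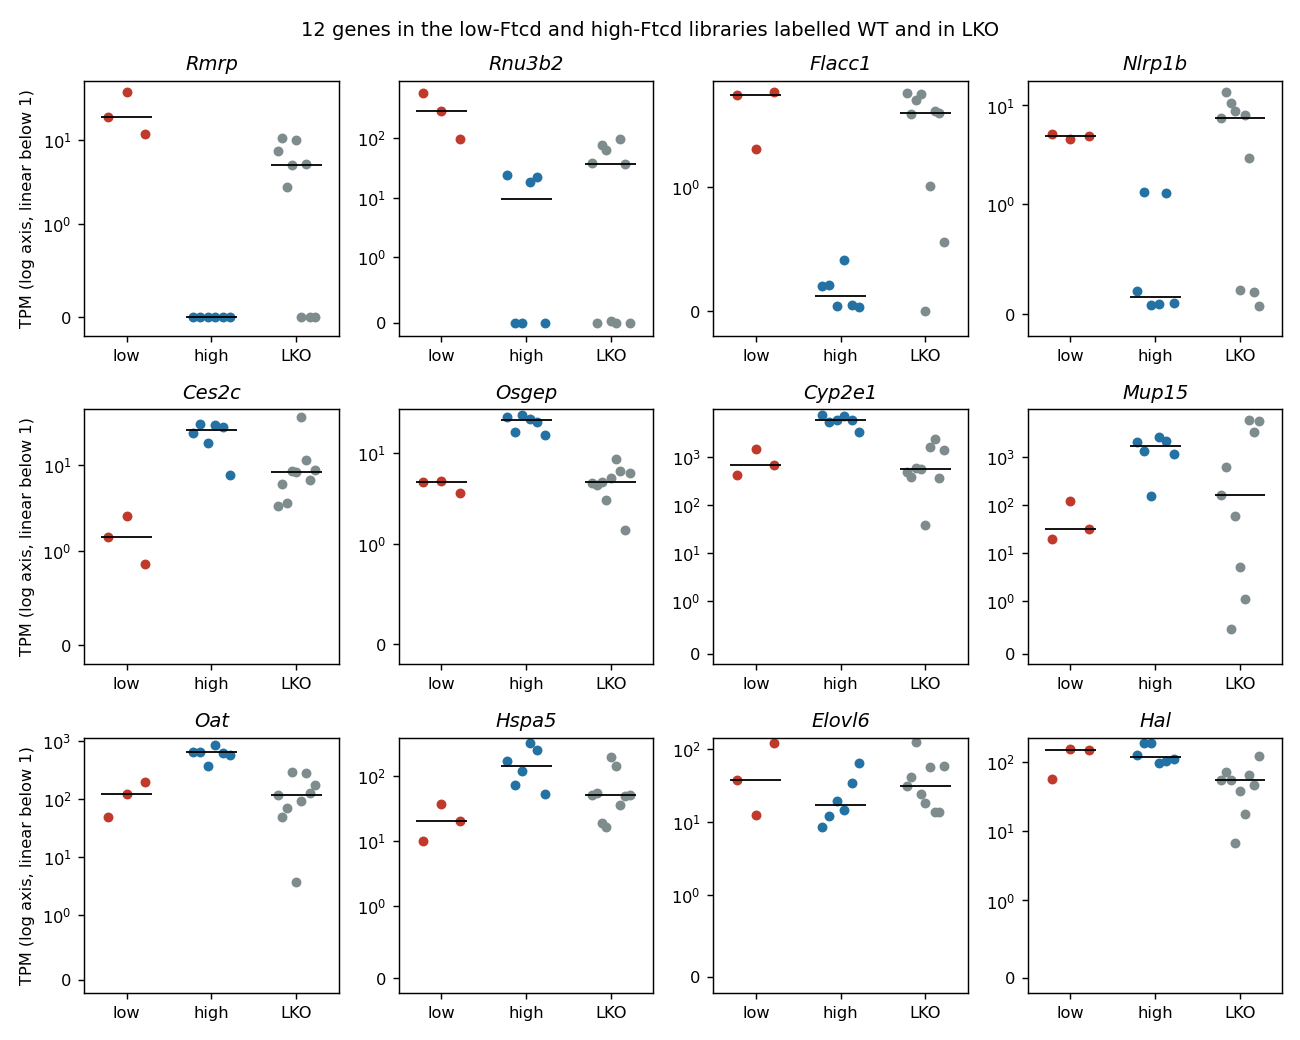
TPM of 12 genes in each library (log axis, linear below 1) for the low-Ftcd and high-Ftcd libraries labelled WT and for LKO, with medians as black bars; Rmrp is the longer entry. The low and high classes do not overlap except in Elovl6 and Hal.

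The 12 falls named by size, among genes whose classes do not overlap, were chosen by these values. Of the 12, 7 were major urinary protein genes on chromosome 4, whose products carry pheromones in urine. Mup15 had 18.9, 121.9 and 31.1 TPM against 149.4 to 2531 TPM (-4.76 ± 0.88, adjusted p = 0.0426). Mup18, Mup19, Mup9, Mup7, Mup1 and Mup12 had differences of -4.69, -4.08, -3.61, -3.08, -3.03 and -3.03. These paralogs are nearly identical and share reads, so the split between them is uncertain. In LKO, Mup19 ranged from 7.48 to 15359 TPM and Mup7 from 3.26 to 14985 TPM. Cyp2c29, a drug-metabolizing P450, had 11.5, 69.2 and 25.7 TPM against 78.8 to 625.3 TPM (-3.49 ± 0.70, adjusted p = 0.0426). The carboxylesterase Ces1d (-3.03), the metalloreductase Steap4 (-3.14) and the signal peptidase subunit Spcs1 (-3.03) completed the 12. With median-ratio scaling the differences of the 12 were -3.89 to -2.16, and Ces2c alone passed.

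The other genes of histidine breakdown did not share the pattern of Ftcd. Hal had 57.3, 151.2 and 148.0 TPM in the low libraries and 94.9 to 187.0 in the high ones (-0.25 ± 0.40, adjusted p = 0.623, and 0.63, adjusted p = 0.339, with median-ratio scaling). Uroc1 had 29.1, 119.9 and 94.1 TPM against 87.1 to 195.1 TPM (-0.95 ± 0.47, adjusted p = 0.14). Amdhd1 had 32.5, 69.0 and 49.2 TPM against 39.3 to 94.9 TPM (-0.60 ± 0.35, adjusted p = 0.194). All 3 overlapped between the classes, and DEN WT 1 was below every high library in each. Of 13 listed genes near Ftcd, all within 500000 bases, 7 could be tested, and their median was -0.72, or -0.09 relative to all genes. None of the 7 passed in limma and 4 had an unadjusted p under 0.05, where 42.3% of all genes did. The nearest upstream gene that could be tested, the lanosterol synthase Lss, had 3.59, 3.31 and 6.32 TPM against 6.35 to 18.0 TPM (-1.13 ± 0.37, adjusted p = 0.0672). On the other side, Col6a2 had 0.26, 0.63 and 0.40 TPM against 0.58 to 2.95 TPM (adjusted p = 0.11). It was under 1 TPM in all 3 low libraries and met the filter only through high ones, so its p-value has little meaning.

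Some enzymes of the folate pool around the Ftcd reaction passed as lower. Of 27 tested folate and one-carbon genes 7 passed as lower (6.71% of all genes did) and none as higher, with a median of -0.91, or -0.28 relative to all genes and -0.25 with median-ratio scaling. Mthfd1, which carries methenyltetrahydrofolate on to its neighbouring forms, had 13.2, 38.5 and 33.6 TPM against 34.9 to 113.6 TPM (-1.52 ± 0.46, adjusted p = 0.0562). The serine hydroxymethyltransferase Shmt1 passed, with 15.6, 33.2 and 33.8 TPM against 71.1 to 150.1 TPM (-1.94 ± 0.34, adjusted p = 0.0426). So did the folate hydrolase Ggh, with 0.87, 1.81 and 0.64 TPM against 2.70 to 7.60 TPM (-1.64 ± 0.32, adjusted p = 0.0426). The mitochondrial dimethylglycine dehydrogenase Dmgdh passed at -1.70. In the methionine cycle none of 14 tested genes passed in limma (median -1.03, relative -0.40). Of the 14, 9 had an unadjusted p under 0.05, where 42.3% of all genes did. Gnmt, the glycine methyltransferase that consumes the methyl donor, came nearest with 181.9, 164.5 and 322.1 TPM against 338.1 to 2283 TPM (-2.44 ± 0.66, adjusted p = 0.0501).

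Genes of hepatocytes near the central vein were among the most often lower. Of 16 tested, 8 passed as lower (6.71% of all genes did), 14 lay wholly below the high libraries (23.8% of all genes), and the median was -1.66, or -1.03 relative to all genes and -0.90 with median-ratio scaling. The ethanol- and DEN-oxidizing P450 Cyp2e1 had 427.5, 1432 and 683.8 TPM against 3234 to 7472 TPM (-2.91 ± 0.41, adjusted p = 0.0426, and -2.02, adjusted p = 0.115, with median-ratio scaling). The ornithine aminotransferase Oat had 49.2, 123.7 and 201.6 TPM against 375.3 to 863.1 TPM (-2.49 ± 0.42, adjusted p = 0.0426). Glutamine synthetase, Glul, had 114.2, 209.7 and 154.4 TPM against 251.6 to 638.9 TPM (-1.41 ± 0.37, adjusted p = 0.048). The list's summed level was 960.5 to 3016 TPM in the low libraries, 6158 to 11930 in the high ones and 321.1 to 3970 in LKO. By contrast, none of 12 periportal genes passed in limma. Of the 12, 4 had an unadjusted p under 0.05, where 42.3% of all genes did. Their relative median was -0.22 and 0.00 with median-ratio scaling. Cps1, the first enzyme of the urea cycle, had 15.7, 80.0 and 85.8 TPM against 110.3 to 710.1 TPM (-2.33 ± 0.71, adjusted p = 0.0571). The difference between the 2 zones was not tested.

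Bile acid, drug and secretory pathway genes lay lower than all genes in each of 6 fits, on the deposited scale, on 4 other scalings and with the mitochondrial covariate. Of 11 bile acid genes 5 passed as lower, where 6.71% of all genes did (relative median -1.14, and -0.74 with the mitochondrial covariate). Slc10a1, the sodium-dependent bile acid uptake transporter, had 15.2, 71.4 and 65.6 TPM against 150.7 to 561.6 TPM (-2.96 ± 0.58, adjusted p = 0.0426). Cyp7a1, the rate-limiting enzyme of bile acid synthesis, had 1.69, 1.89 and 6.97 TPM against 12.0 to 46.1 TPM (-2.34 ± 0.49, adjusted p = 0.0435). Of 14 genes of drug metabolism under CAR and PXR 6 passed as lower (relative median -1.03, and -0.52 with the mitochondrial covariate), among them the bilirubin transferase Ugt1a1 (-2.99), Cyp3a13 (-2.72) and Cyp2c50 (-2.12). Of 14 genes of protein folding in the endoplasmic reticulum 6 passed as lower (relative median -1.33, and -0.53 with the mitochondrial covariate). The chaperone Hspa5 had 10.0, 36.5 and 20.6 TPM against 52.5 to 319.8 TPM (-2.71 ± 0.61, adjusted p = 0.0435), and its regulator Xbp1 passed at -2.5. Of 16 acute phase genes 4 passed as lower (relative median -1.39, and -0.39 with the mitochondrial covariate). The fibrinogen chain Fga had 65.9, 362.4 and 123.7 TPM against 252.0 to 4219 TPM (-3.19 ± 0.82, adjusted p = 0.0473), while the reactant Saa1, at 4.51, 513.6 and 4.76 TPM against 28.4 to 2888 TPM, did not pass.

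Lipid pathways differed among themselves. Of 27 genes of fatty acid oxidation under PPARa 7 passed as lower, where 6.71% of all genes did (relative median -0.74). Hadhb, a subunit of the mitochondrial trifunctional protein, had 4.79, 17 and 14.9 TPM against 21.1 to 147.6 TPM (-2.54 ± 0.65, adjusted p = 0.0473). Cpt1a, which admits fatty acids to mitochondria, had 4.48, 13.8 and 15.9 TPM against 19.4 to 205.1 TPM and did not pass (adjusted p = 0.0517). Of 25 genes of cholesterol synthesis under SREBP2 5 passed as lower, all 25 were lower in sign, and the relative median was -0.59. Msmo1, a sterol methyl oxidase, had 9.81, 14.8 and 40.0 TPM against 63.1 to 109.9 TPM (-2.15 ± 0.38, adjusted p = 0.0426), and Cyp51 passed at -1.82. Srebf2 itself did not pass (-0.73 ± 0.33, adjusted p = 0.12). None of 14 genes of fatty acid synthesis under SREBP1 passed in limma, and 2 had an unadjusted p under 0.05, where 42.3% of all genes did. Their median was 0.01 relative to all genes, 0.24 with median-ratio scaling. The elongase Elovl6 was above 0 in sign, with 37.8, 12.5 and 119.0 TPM against 8.39 to 63.2 TPM (0.92 ± 0.41, adjusted p = 0.115). Of 12 lipid droplet genes, with a relative median of -0.32, 2 passed as lower, G0s2 (-1.93) and Plin2 (-1.68), while Pparg (-0.45) and Cidec (-0.18) did not pass and turned positive with median-ratio scaling.

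**Figure D5:**
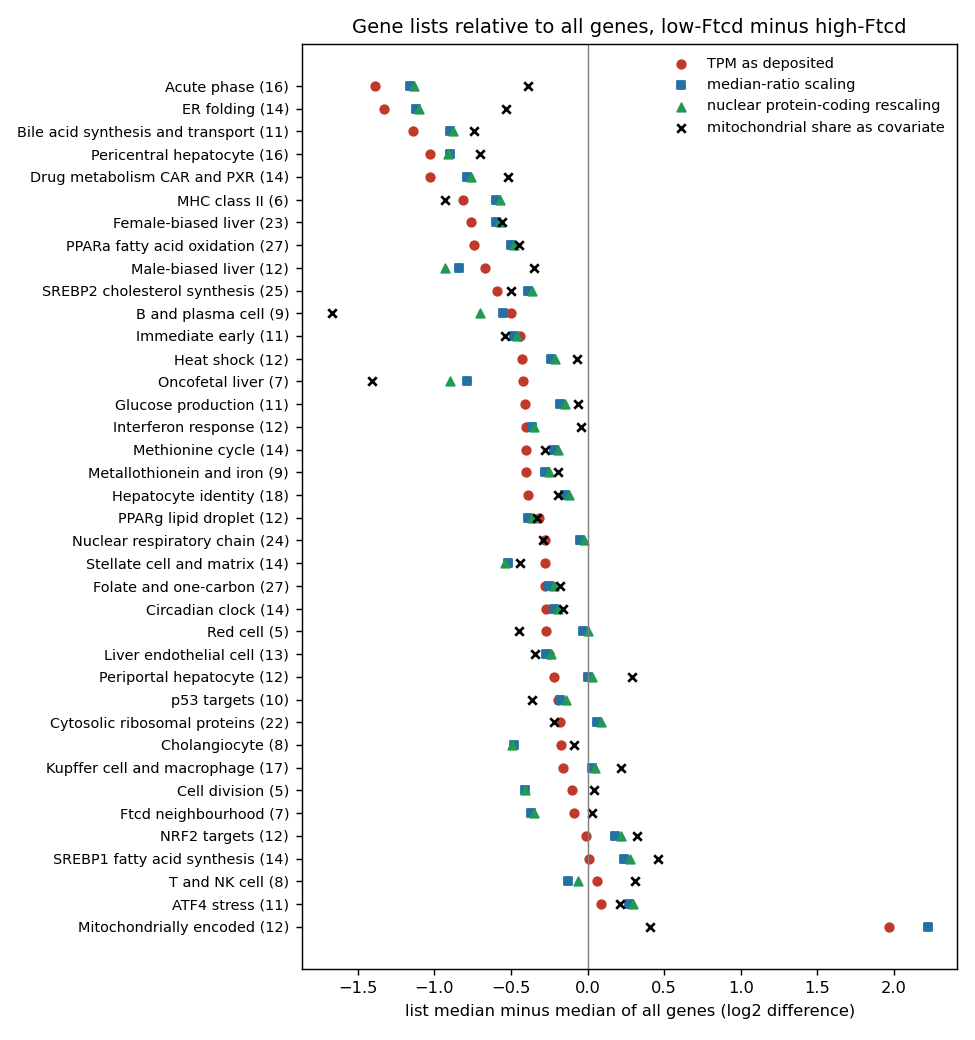
Median log2 difference (low minus high) of each gene list with 5 or more tested genes, minus the median of all genes tested in the same fit, under 4 fits; the number tested is in parentheses. Of the 38 lists, 34 lie below 0 on the deposited scale and 27 under all 6 fits computed.

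Respiratory chain genes are encoded in part by the mitochondrial genome and in part by nuclear genes. The 12 tested protein-coding genes of the mitochondrial genome had a median of 1.34, and none passed in limma. Of the 12, 6 had an unadjusted p under 0.05, where 42.3% of all genes did. The oxidase subunit mt-Co1 had 130614, 17068 and 90893 TPM against 10687 to 31578 TPM (1.82 ± 0.64, adjusted p = 0.0749), so DEN WT 2 lay inside the high range. Of 24 nuclear respiratory chain genes 8 passed as lower, where 6.71% of all genes did. Their median was -0.91, or -0.28 relative to all genes and -0.05 with median-ratio scaling. The difference between both lists was not tested. The oxidase subunit Cox5a had 25.2, 96.5 and 42.8 TPM against 99.5 to 338.2 TPM (-2.28 ± 0.49, adjusted p = 0.0435), and the ATP synthase subunit Atp5b passed at -1.84. Of 22 cytosolic ribosomal protein genes 6 passed as lower (relative median -0.18, and 0.06 with median-ratio scaling). Rpl4 had 51.4, 71.8 and 42.7 TPM against 106.7 to 381.5 TPM (-2.15 ± 0.39, adjusted p = 0.0426).

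Markers of the cells a liver sample can hold were read next. In bulk RNA, fewer cells of a type and less RNA per cell cannot be told apart. Hepatocyte identity genes summed to 39620 to 75200 TPM in the low libraries, 82030 to 142000 in the high ones and 28930 to 130300 in LKO. Of 18 tested 3 passed as lower, where 6.71% of all genes did, and the relative median was -0.39. Of all genes with a mean of 50 to 500 TPM 269 of 1193 passed as lower, and of those over 500 TPM 52 of 261. Prothrombin, F2, was among the 3, with 99.2, 369.0 and 132.2 TPM against 509.5 to 1454 TPM (-2.55 ± 0.49, adjusted p = 0.0426). Albumin did not pass (-0.98 ± 0.43, adjusted p = 0.113). Of 13 markers of liver endothelium 3 passed as lower, Clec4g (-1.66), Oit3 (-1.55) and Pecam1 (-1.31). The relative median was -0.25 and the sums were 78.4 to 129.2 TPM in the low and 103.6 to 199.2 TPM in the high libraries. Of 14 stellate cell and matrix genes 3 passed as lower, with a relative median of -0.28 and sums of 126.0 to 346.4 against 196.3 to 454.5 TPM. They include the collectin Colec11 (-2.21) and decorin, Dcn, with 11.0, 9.62 and 13.6 TPM against 32.8 to 125.8 TPM (-2.11 ± 0.41, adjusted p = 0.0426). Of 6 MHC class II genes 4 passed as lower (relative median -0.81), with H2-Eb1 at 15.9, 27.7 and 10.4 TPM against 32.8 to 175.0 TPM (-1.78 ± 0.40, adjusted p = 0.0435). None passed in limma of 17 macrophage, 8 T and NK cell, 9 B and plasma cell, 2 neutrophil, 8 cholangiocyte and 5 red cell genes. Of these 5, 0, 1, 0, 5 and 3 had an unadjusted p under 0.05, where 42.3% of all genes did. Their relative medians were -0.16, 0.06, -0.50, 0.02, -0.17 and -0.27. Macrophage genes summed to 181.6 to 582.6 TPM against 311.5 to 997.9 TPM, B and plasma cell genes to 89.1 to 613.4 against 104.2 to 2274, and cholangiocyte genes to 136.5 to 190.9 against 163.2 to 424.0. Of 9 pancreatic acinar genes 2 could be tested and 1, the elastase Cela1, passed as lower, with 7.54, 11.0 and 10.9 TPM against 22.9 to 49.5 TPM (-1.57 ± 0.31, adjusted p = 0.0426). Clps, Cpa1, Prss2 and Amy2b were listed at 0 in all 9 libraries, and no mesothelial gene reached the filter. The part of cell make-up in the other results was not tested.

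Some genes that male and female livers express differently passed as lower, on both sides of the bias. Of 23 tested female-biased genes 7 passed as lower and of 12 male-biased genes 3, where 6.71% of all genes did. Their relative medians were -0.76 and -0.67. The female-biased sum overlapped between the classes, at 4701 to 18950 TPM in the low libraries and 5898 to 13880 TPM in the high ones, and the male-biased sum was 339.4 to 1007 against 1081 to 1718 TPM. The P450 gene Cyp3a44 had 10.5, 44.3 and 20.4 TPM against 49.8 to 376.8 TPM (-2.63 ± 0.55, adjusted p = 0.0435). The bile acid and steroid sulfotransferase Sult2a1 had 58.0, 162.6 and 98 TPM against 332.8 to 779.4 TPM (-2.20 ± 0.39, adjusted p = 0.0426) and 0.00 to 22.5 TPM in LKO. In Sult2a1 the low libraries thus lay between the other classes, above every LKO library and below every high one. On the male-biased side Cyp7b1 had 3.96, 5.08 and 2.65 TPM against 11.5 to 28.6 TPM (-2.11 ± 0.35, adjusted p = 0.0426) and 1.98 to 72.3 TPM in LKO. Cyp4a14, a fatty acid hydroxylase of the PPARa list and in neither sex-biased one, had 27.4, 85.8 and 47.8 TPM against 87.0 to 363.8 TPM (-2.06 ± 0.49, adjusted p = 0.0447) and 0.09 to 18.4 TPM in LKO. The LKO libraries included tumours and were mostly XY. Only DEN LKO nontumour 1 and DEN LKO tumour 1 expressed Xist, at 55.1 and 35.4 TPM, and they had 22.5 and 9.3 TPM of Sult2a1. In the other LKO libraries Xist was at 0.01 TPM or less, while each library labelled WT had at least 3.59 TPM. The part of sex in the LKO values was not tested.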

How the data were processed

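RNA of 18 mouse liver libraries was sequenced, and the 9 labelled WT were compared here. TRIzol was used for extraction and a TruSeq kit for the libraries, per the labels' protocols. The deposited unit is TPM, in a single table of genes. The tools fastp, HISAT and RSEM and the build mm10 are named, per the submitters' processing notes, with versions and settings not given in the sources used here. TPM sums to 1000000 per library, so shares fall when other RNAs take more of the total, and counts and depth cannot be recovered. Of the 58126 genes in the table, 55141 (94.9%) were in GENCODE M21, which gave coordinates and types. There were 0 other columns per sample.

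The 11988 genes that reached 1 TPM in 3 or more of the 9 libraries were fitted as log2(TPM + 1) with limma 3.58.1 in R 4.3.3, with class and DEN as terms, an intensity trend and 6 residual degrees of freedom. Tests were 2-sided with Benjamini-Hochberg adjustment over all genes fitted, and passing means an adjusted p below 0.05. Values after ± are standard errors unless SD is given, and the log2(TPM + 1) scale understates changes of low genes. Ftcd was left out of tests and adjustment because it chose the classes. The script was tested on simulated data. Genes were named by size: up to 12 rises and 12 falls among passing genes that had a regular symbol, did not overlap between classes and averaged at least 5 TPM in the higher class (8 rises and 681 falls met this). Fixed genes and up to 4 members per list were added whatever their result, except 1 that is not reported here. The members, classes and 45 lists (620 of 621 entries matched) were chosen with earlier results of these data known. Results were recomputed under 21 other settings and 1 more chosen after seeing the data, the rescaling over nuclear protein-coding genes.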

Additional observations from a re-analysis of the deposited data

Results flagged for a closer look

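In the 6 high-Ftcd libraries, 128 values were examined for a library that lies far from the other 5, and 17 were so marked. The values are TPM without a log and the genes are not independent, so no rate expected by chance is given. Untreated WT 2 accounted for 7. It had 29.05 TPM of Mir8097 where the others were listed at 0, 1037.27 TPM of mt-Rnr2 where the others had 125.1 to 432.0, and 2.51 TPM of Fbxl7 where they had 0.18 to 0.78. It also had 0.04 TPM of Spatc1l where the others were at 0, 116.02 TPM of Cdk8 where they had 19.1 to 53.6, 279.32 TPM of Tmtc2 where they had 34.1 to 120.2, and 11.57 TPM of Srebf2 where they had 19.4 to 23.96.

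DEN WT 5 had the highest Ftcd, 106.1 TPM where the other high libraries had 61.2 to 77.2. It also stood above the others in antigen presentation and plasma cell genes, with 174.98 TPM of H2-Eb1 (others 32.8 to 61.3), 425.04 of Cd74 (80.8 to 184.5), 127.06 of H2-Ab1 (41.8 to 67.5) and 80.88 of Jchain (4.07 to 13.4). DEN WT 6 had 205.05 TPM of Cpt1a (19.4 to 87.1) and 125.79 of Dcn (32.8 to 59.1). DEN WT 4 had 1.44 TPM of Gm2000 where the others were at 0, and 10.89 of 1700054M17Rik (3.19 to 5.99). Untreated WT 1 had 3025.33 TPM of A1bg (166.3 to 853.3).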

How the results depend on the processing

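The count of passing genes moved by over 1.5 times under most settings. From 842, it was 1 when only genes at 0 in all 9 libraries were dropped. With 1 TPM or more in at least 6 libraries it was 2012, and with a pseudocount of 0.1 it was 1508. Scaling brought it to 7 by median ratio, 10 by quantile normalization and 182 with TPM rescaled over genes not encoded by mitochondria. It was 2276 with no DEN term, 15 in the DEN WT libraries only, 2 over all 18 libraries, 1 with the mitochondrial share as a covariate, 0 over nuclear protein-coding genes (smallest adjusted p 0.0805) and 2 to 4815 when 1 library was left out. With no intensity trend it was 1055. The fits that leave out a library, and the DEN WT fit, hold fewer samples. For the other settings the cause was not tested. With the replicate number as a block it was 100, 79 of them higher, where DEN WT and untreated WT share numbers 1 to 3. DEN WT 4, 5 and 6 are each alone in a block there and add nothing to the class difference. This count is therefore not comparable with the others. Same-numbered libraries correlated in their deviations from group means at -0.65, 0.23 and -0.48. Every such pair sets a low library against a high one, which by itself can lower these values. Whether the numbers mark pairs can therefore not be told from them.

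Of 114 named genes recomputed under each setting, 71 passed on the deposited scale with all 9 libraries and none of these turned in sign. Of 2483 recomputed values 1306 kept direction and side of the threshold, 1076 no longer passed, 63 newly passed and 38 turned. With median-ratio scaling the turned values were Hal 0.63, Amdhd1 0.28, Pcnt 0.17, Mcm3ap 0.41, Slc19a1 0.15, Pparg 0.29, Cidec 0.56 and Srebf2 0.10. With quantile normalization they were Hal 0.52, Amdhd1 0.18, Pcnt 0.07, Mcm3ap 0.29, Slc19a1 0.05, Pparg 0.14 and Cidec 0.42. Over nuclear protein-coding genes they were Hal 0.52, Amdhd1 0.16, Pcnt 0.08, Mcm3ap 0.32, Slc19a1 0.07, Pparg 0.20 and Cidec 0.49, and without mitochondrial genes Hal 0.04 and Cidec 0.06. With the mitochondrial share as a covariate they were Hal 0.12, Uroc1 0.11, Amdhd1 0.02, Pcnt 0.06, Pparg 0.04, Fasn 0.58, Srebf1 0.30 and Saa1 0.63. Hal was 0.02 with the replicate block and -0.61 to 0.26 when 1 library was left out, the positive value without DEN WT 1. The shorter Rmrp entry was -0.24 without DEN WT 2, and up to 2.25 without 1 other library. Atf5 was -0.19 in the DEN WT libraries only and also without untreated WT 3, -0.03 without untreated WT 2 and up to 0.58 without DEN WT 1. In all, 3 libraries against 6 of unknown depth, 2 of the 3 with DEN, limit what can be told apart. The mitochondrial share of DEN WT 2 and the rRNA share of DEN WT 1 lay inside the range of the high libraries. In both shares the other low libraries lay above that range. The part of these shares in the results was not tested beyond the fits above.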

Other observations

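Stress and clock genes were not described above. Of 12 heat shock genes 3 passed as lower in limma, where 6.71% of all genes did (relative median -0.43, and -0.07 with the mitochondrial covariate). They were the cochaperone Dnaja1 with 18.5, 50.8 and 35.0 TPM against 82.7 to 254.3 TPM (-2.05 ± 0.44, adjusted p = 0.0435), the mitochondrial chaperonin Hspd1 (-1.74) and its partner Hspe1 (-1.64). None of 11 ATF4 stress genes passed in limma, and their median lay at 0.09 relative to all genes. Atf5, a transcription factor of that response, had 70.1, 141.3 and 239.6 TPM against 89.2 to 178.1 TPM (0.17 ± 0.37, adjusted p = 0.719). None of 14 clock genes passed either (relative median -0.27), and the repressor Ciart had 3.12, 3.65 and 4.84 TPM against 4.39 to 35.7 TPM (-1.80 ± 0.50, adjusted p = 0.0518).

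The hepcidin gene Hamp2 was above 0 in sign, with 3427, 4357 and 15606 TPM against 569.1 to 8668 TPM (1.47 ± 0.71, adjusted p = 0.137). The transhydrogenase Nnt had 2.55, 11.5 and 6.66 TPM against 9.92 to 48.0 TPM (-1.74 ± 0.52, adjusted p = 0.0561). Asked whether the difference between the classes varied with DEN, limma passed 1 of 11988 genes, the 5S rRNA gene n-R5s121 (adjusted p = 0.0479), and 223 had an unadjusted p under 0.05. The untreated low-Ftcd side of that fit holds 1 library, untreated WT 3, which is assumed to vary like the others. The gene had 61.4 and 1542 TPM in DEN WT 1 and 2, 318.3 and 409.1 in untreated WT 1 and 2, and 0 in the other 5 libraries labelled WT.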
